A study of Rattus norvegicus with 12 samples.

Results

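Genes for myokines and cardiokines, proteins released by skeletal or heart muscle, were followed in left ventricular RNA from Sham rats and from infarcted rats with heart failure. They were chosen by name as Fndc5, Metrnl, Fgf21, Gdf15, Apln, Aplnr, Il15, Il6 and Ostn, and each of these 9 symbols matched 1 of the 34700 genes in the deposited table. All 12 rats were male Sprague-Dawley rats operated on at 8 weeks of age, with 3 rats in each of 4 groups. In Sham surgery the thread was passed around the artery and not tied. In the HF, HFE and BAIBA groups the left anterior descending coronary artery was ligated, so an infarct is common to the 3 groups. The HF rats stayed sedentary, the HFE rats had treadmill training at 50 to 60 percent of maximal intensity (60 min per session, 5 sessions weekly, 8 weeks), and the BAIBA rats received β-aminoisobutyric acid by mouth at 75 mg/kg/day over 8 weeks. Treatment began 4 weeks after surgery, and hearts were taken 12 weeks after it. The methods describe exercise and BAIBA as separate studies, each with Sham and HF groups. In the BAIBA study the Sham and HF rats were given water by gavage. The labels do not say from which study the Sham and HF rats came. Treatment and study therefore cannot be told apart where HFE and BAIBA hearts are compared. The labels name only the heart as the tissue. According to the methods the tissue was anterior wall of the left ventricle, and for the BAIBA group alone the surroundings of the infarct, while the study's results section puts the HF tissue there as well. Treatment and sampling site therefore cannot be told apart with certainty wherever BAIBA hearts are compared. No exercised Sham group was analysed here. The labels and methods give BAIBA to 1 ligated group only, but the supplement of the study speaks of BAIBA given to Sham and HF rats. The labels were followed.

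BAIBA is itself a small molecule released by exercising muscle, and the proteins followed here are other signals of that kind. Fndc5 encodes a membrane protein from which irisin is cut and released. Metrnl encodes meteorin-like, a secreted factor of muscle and fat. Apelin, from Apln, acts on vessels and on the heart muscle through its receptor Aplnr, which is abundant on endothelium. Il15 and Il6 encode cytokines made by contracting muscle among other tissues, while Gdf15 and Fgf21 encode hormones that many tissues release under metabolic or mitochondrial stress. Ostn encodes osteocrin (musclin), which binds the natriuretic peptide clearance receptor Npr3. In RNA from whole tissue, fewer cells of a type and less RNA per cell cannot be told apart.

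The promoters of Apln, Fndc5 and Metrnl are shown because these 3 genes were lower in every HF rat than in every Sham rat. Each runs from 250 bases before to 50 bases after the transcript start in the RefSeq table of the rat build GRCr8, 5′ to 3′ on the strand of the gene, with matches to the motifs searched in capitals.
Apln, chrX:132091197-132091496, strand -: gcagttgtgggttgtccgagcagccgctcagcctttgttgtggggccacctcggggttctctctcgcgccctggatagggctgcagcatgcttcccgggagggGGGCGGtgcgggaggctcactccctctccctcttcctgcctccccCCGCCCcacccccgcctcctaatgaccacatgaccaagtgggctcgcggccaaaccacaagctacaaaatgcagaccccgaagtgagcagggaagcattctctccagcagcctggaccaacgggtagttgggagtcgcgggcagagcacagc
Fndc5, chr5:146767809-146768108, strand +: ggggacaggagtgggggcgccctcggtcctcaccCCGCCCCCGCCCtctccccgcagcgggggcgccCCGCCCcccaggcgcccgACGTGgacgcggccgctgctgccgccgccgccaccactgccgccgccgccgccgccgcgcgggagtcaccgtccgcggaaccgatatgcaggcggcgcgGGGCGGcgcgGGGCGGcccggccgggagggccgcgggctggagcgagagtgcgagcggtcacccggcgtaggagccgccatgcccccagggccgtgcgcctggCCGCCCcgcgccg
Metrnl, chr10:107461898-107462197, strand +: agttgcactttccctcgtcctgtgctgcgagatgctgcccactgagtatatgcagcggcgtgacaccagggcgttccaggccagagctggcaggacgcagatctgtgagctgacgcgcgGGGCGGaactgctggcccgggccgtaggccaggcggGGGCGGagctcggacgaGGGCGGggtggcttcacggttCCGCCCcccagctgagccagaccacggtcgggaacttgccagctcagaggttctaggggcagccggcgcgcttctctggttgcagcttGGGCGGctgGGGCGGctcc
The capitals mark GGGCGG or its reverse complement CCGCCC, the GC box, and in Fndc5 also ACGTG, the core of the hypoxia response element. The table held a promoter for 7 of the 9 genes, with 2 for Gdf15 and none for Aplnr or Ostn. The 6 motifs were searched on both strands, and 33.1% of the 33469 promoters of the table held GGGCGG, 19.3% ACGTG, 37.5% CCAAT, 14.2% TATAAA, 6.42% CACGTG and 1.83% TGACGTCA. ACGTG lies inside CACGTG on both strands, so a CACGTG match is also a match to ACGTG. The Apln promoter held 2 GC box matches and the Fndc5 and Metrnl promoters 6 each, and TATAAA and CCAAT were in none of the 3 windows. GC made up 65.0% of the bases in the Apln window, 84.0% in Fndc5 and 69.0% in Metrnl, against a median of 51.7% over all promoters. GC box matches were also in the promoters of Fgf21 (2) and Il15 (1) and in 1 of the 2 Gdf15 promoters (5). The Il6 promoter held no GC box, but 1 match to the cAMP response element TGACGTCA and 2 to CCAAT. The Fgf21 promoter also held TATAAA and CACGTG. The Gdf15 promoter with GC boxes held TATAAA, and the other held CCAAT. A match is a run of letters and not a site shown to be used.

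Cell type markers differed between single rats and, for some lists, between groups. The total count on genes was between 14812541 and 19732588 per rat. Cardiomyocyte markers summed to between 10918 and 14060 FPKM (the authors' fragments per kilobase of gene, scaled to library size) in every rat, and the 4 of 6 skeletal muscle markers in the table to between 5.78 and 14.7 FPKM, with Myh2 between 0.0171 and 0.230. The summed T cell markers Cd3d, Cd3e and Cd3g were at 115 FPKM in HF rat 1 and at most 9.72 in any other rat. BAIBA rat 1 had the highest sums of the mesothelial markers at 34.6 FPKM, the fibroblast markers at 284 and the macrophage markers at 90.8. Atrial markers varied in the Sham group between 10.2 and 64.8 FPKM, in HF up to 24.0, in HFE up to 39.0 and in BAIBA up to 6.33. Other sums separated groups. The 4 erythroid markers summed to between 1626 and 2149.9 FPKM in BAIBA, above every Sham rat (908.6 to 1360.1) and every HFE rat (1126 to 1412), and HF ranged from 899 to 1772. The 5 fibroblast markers summed to between 123 and 161 FPKM in HF and between 118 and 158 in HFE, below every Sham rat (171 to 197). Cardiomyocyte sums in HF, from 10918 to 12432 FPKM, were below every Sham rat, and Myh6 was the 1 of the 5 markers without overlap. Their part in the results was not tested beyond leaving out HF rat 1 and BAIBA rat 1.

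**Figure D1:**
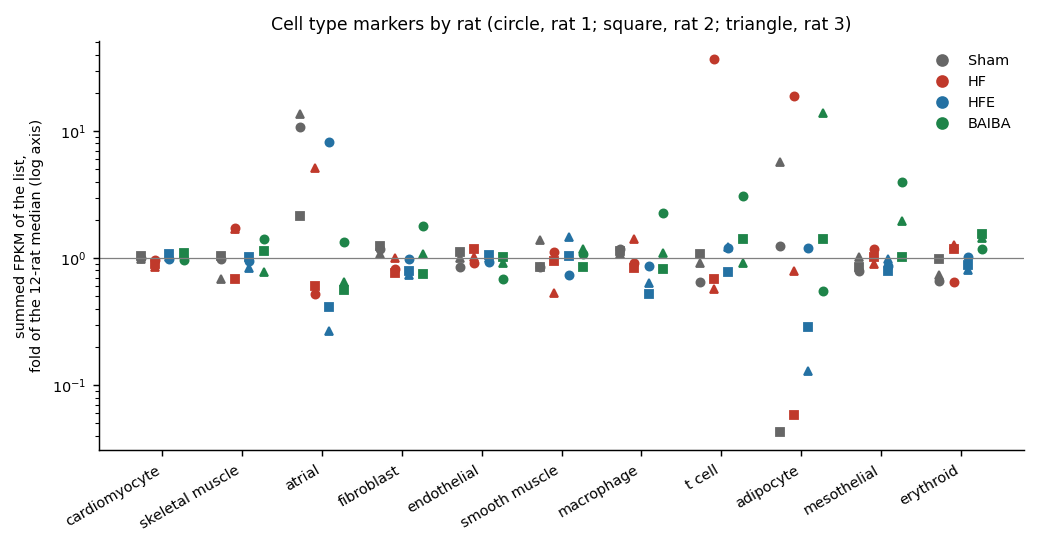
Summed FPKM of each cell type marker list in each rat, as a fold of the median over the 12 rats on a log axis. Cardiomyocyte markers lie close to 1 in all rats, HF rat 1 stands above the others in T cell markers, and BAIBA rat 1 is highest in mesothelial, fibroblast and macrophage markers.

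The table lists Fndc5 as ENSRNOG00000030238, Metrnl as ENSRNOG00000046202, Fgf21 as ENSRNOG00000020990, Gdf15 as ENSRNOG00000019661, Apln as ENSRNOG00000003984, Aplnr as ENSRNOG00000009227, Il15 as ENSRNOG00000003439, Il6 as ENSRNOG00000010278 and Ostn as ENSRNOG00000030462. By level, the genes ran from among the more abundant transcripts of the ventricle to the limit of detection. In FPKM over the 12 rats, Fndc5 had a mean of 72.7 (from 52.7 to 86.0), which was above 95.7% of the 15617 genes that passed the filter on low counts over the 12 rats. Aplnr followed with a mean of 24.0 (SD 7.65), Il15 with 17.2 (SD 3.23), Apln with 5.36 (SD 1.40) and Metrnl with 2.22 (SD 1.06). The means of Gdf15 at 0.892 FPKM and Fgf21 at 0.671 FPKM came next, ahead of Il6 at 0.103 FPKM and Ostn at 0.0236 FPKM. The lowest rat for Fndc5 was above the highest for Aplnr, at 37.7 FPKM, and the lowest rat for Il15, at 12.8 FPKM, was above the highest for Apln, at 7.22 FPKM. The other neighbours overlapped between rats. Aplnr was above Il15 in 9 of 12 rats, while Apln was above Metrnl in all 12, and Gdf15 was above Fgf21 in 5 of 12. Ordered by the median, Gdf15 and Fgf21 changed places and the other 7 genes kept theirs. Fgf21 had between 1 and 12 counts per rat, Il6 between 0 and 5 and Ostn between 0 and 3, and these 3 genes did not pass the filter. A limit of 3 counts corresponds to between 0.159 and 0.208 CPM (counts scaled to library size, with TMM factors over the 12 rats) at the depth of these libraries.

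**Figure D2:**
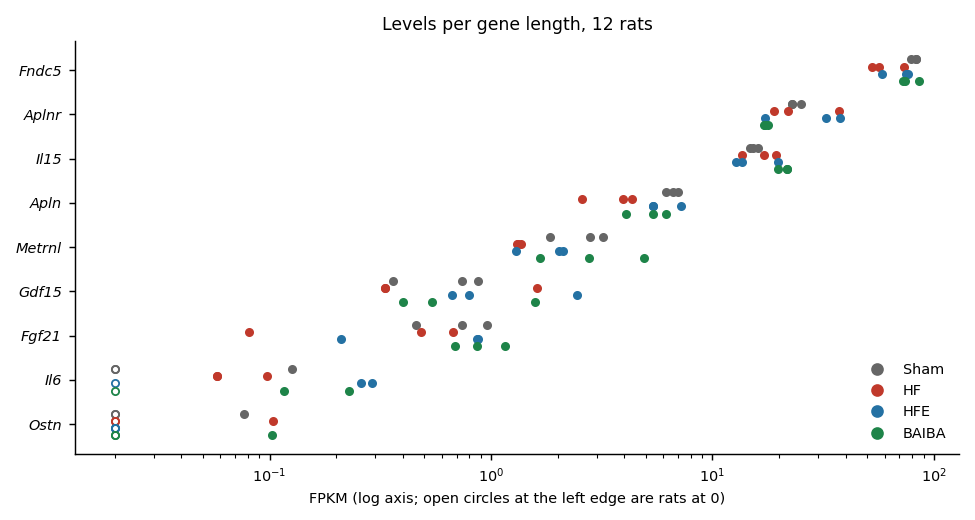
FPKM of the 9 genes in each of the 12 rats on a log axis, 1 point per rat coloured by group, with genes in the order of their mean. Fndc5 stands apart at the top, and open circles at the left edge mark the 4 rats at 0 for Il6 and the 9 rats at 0 for Ostn.

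The study asked how heart failure changes the heart and whether exercise and BAIBA act alike on it, and the 9 genes were compared between each pair of groups and between the 9 infarcted rats and Sham. Fold changes are on the log2 scale from edgeR's quasi-likelihood test, with their SE, and a gene was called with a Benjamini-Hochberg adjusted p under 0.05 over all genes tested and an absolute log2 fold change over 1. By edgeR, 0 of the 6 genes tested (5 in BAIBA against HF) were called in each of the 7 comparisons, and DESeq2 also called 0. Between HF and Sham, 0% of the 14957 genes tested were called. At an unadjusted p under 0.05, 6% of all genes and 3 of the 6 passed, and 11.7% of all genes and 3 of the 6 did not overlap between the groups. Between HFE and Sham the genes called were 0%, none of the 6 had an unadjusted p under 0.05 where 11.2% of all genes did, and 1 of the 6 did not overlap where 17.8% did not. Between BAIBA and Sham 0.0402% of genes were called, 3 of the 6 passed the unadjusted p against 7.41% of all genes, and 3 did not overlap against 12.7%. For HFE against HF these shares were 0%, 7.62% and 14.3%, with 1 of the 6 genes past the unadjusted p and not overlapping. In BAIBA against HF 0% were called, and 4 of 5 genes passed the unadjusted p against 5.55% of all genes. Overlap was counted in CPM, in which 3 of 5 did not overlap against 11.5%. In FPKM, Apln and Fndc5 did overlap between HF and BAIBA, while Aplnr and Il15, which overlapped in CPM, did not. In BAIBA against HFE 0.0808% were called (12 genes, or 32 with the replicate number as a block, none of them a member), 1 of 6 passed the unadjusted p against 9.57%, and 1 did not overlap against 15.6%. With all infarcted rats against Sham the shares were 0% called, 6.35% at the unadjusted p, with 2 of the 6 genes, and 1.02% without overlap, with 0. The median log2 fold change of the genes tested was -0.14 in HF against Sham, against 0.01 over all genes. It was 0.35 in HFE against HF and 0.33 in BAIBA against HF, against -0.01 over all genes in both. In the other comparisons it was between -0.10 and 0.07. Comparisons that share a group share its rats, so these counts are not independent. The smallest two-sided p of the exact permutation test is 0.1 for 3 rats against 3, and 13 of the 54 pairwise tests of a member reached it. This p is reached only where groups do not overlap, so the count repeats the overlaps above. It adds Fgf21 in BAIBA against HF, a gene below the filter on low counts.

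**Figure D3:**
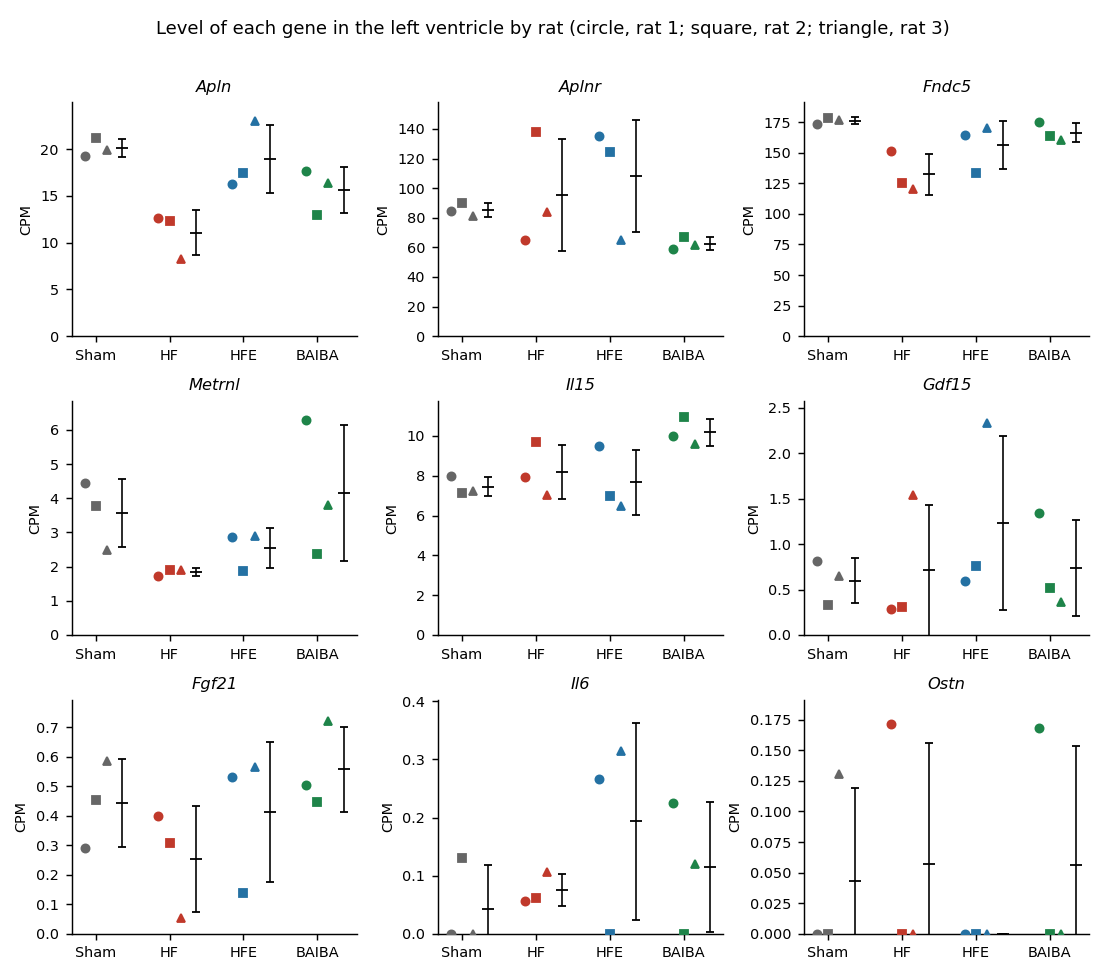
CPM of each of the 9 genes in each rat by group, from 0 on a linear axis, with the mean and SD of the 3 rats beside them in black (bars are cut at 0). Apln and Fndc5 lie lower in every HF rat than in every Sham rat, Metrnl too, and Aplnr is at or below 67.1 CPM in all BAIBA rats.

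Apelin was lowest in untreated heart failure. In CPM, Apln was at 19.3, 21.2 and 19.9 in the Sham rats, 12.6, 12.3 and 8.29 in HF, 16.3, 17.5 and 23.1 in HFE, and 17.7, 12.9 and 16.4 in BAIBA. In CPM all HF rats lay below all rats of the other 3 groups, and the HFE rats overlapped with Sham. In FPKM, HF rat 1 at 4.34 lay above BAIBA rat 2 at 4.07. HF against Sham gave a log2 fold change of -0.87 (SE 0.17, edgeR adjusted p = 0.737). With DESeq2 the adjusted p was 0.0166 at a log2 fold change of -0.86. HFE was above HF by 0.78 (SE 0.21, edgeR adjusted p = 0.627), and BAIBA above HF by 0.50 (SE 0.21, edgeR adjusted p = 0.851), or by 0.33 without HF rat 3. BAIBA was below Sham by a log2 fold change of -0.35 (SE 0.14, edgeR adjusted p = 0.654), again with no overlap, while HFE against Sham gave -0.08 (SE 0.14). Over all infarcted rats the log2 fold change was -0.44 (SE 0.15, edgeR adjusted p = 0.754), with a two-sided exact permutation p of 0.0545.

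The apelin receptor varied between rats more than its ligand in the HF and HFE groups. In CPM, Aplnr was at 84.5, 90.1 and 81.2 in the Sham rats and at 58.7, 67.1 and 61.8 in the BAIBA rats, all 3 of which lay below Sham. The HF rats were at 65.2, 138 and 83.6 and the HFE rats at 135, 124 and 65.2, so in CPM both groups overlapped with every other group. In FPKM the lowest HF rat, at 18.9, lay above the highest BAIBA rat at 17.8. BAIBA against Sham gave a log2 fold change of -0.44 (SE 0.09, edgeR adjusted p = 0.294), and DESeq2 an adjusted p of 0.0217. BAIBA against HFE gave -0.79 (SE 0.26, edgeR adjusted p = 0.385), where HFE rat 3 lay within the BAIBA range. DESeq2 gave this difference an adjusted p of 0.0491. Without HFE rat 3 the log2 fold change was -1.05 with an edgeR adjusted p of 0.0360, and the gene was then called. BAIBA against HF gave -0.61 (SE 0.25, edgeR adjusted p = 0.851), and it was -0.25 without HF rat 2. HF against Sham, at 0.16 (SE 0.26), was within the spread between rats and took the other sign without HF rat 2. Summed endothelial markers were between 86.3 and 129 FPKM in the BAIBA rats and between 107 and 142 in the Sham rats. In BAIBA against HFE, Tie1 (-0.42, SE 0.11) and Kdr (-0.50, SE 0.21) were lower without overlap, the other 2 endothelial markers overlapped, and their part in the Aplnr difference was not tested.

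Fndc5, the irisin precursor, was close to constant in Sham and lower in HF. In CPM it was at 174, 179 and 177 in Sham, 151, 125 and 120 in HF, 165, 134 and 170 in HFE, and 175, 164 and 160 in BAIBA. In CPM the HF rats lay below all Sham and all BAIBA rats, and the HFE rats lay below Sham but overlapped with HF. In FPKM, HF rat 1 at 73.3 lay above BAIBA rat 2 at 72.9. HF against Sham gave a log2 fold change of -0.42 (SE 0.10, edgeR adjusted p = 0.772), and HFE against Sham -0.17 (SE 0.10, adjusted p = 0.548), or -0.07 without HFE rat 2. BAIBA against HF gave 0.33 (SE 0.12, edgeR adjusted p = 0.851), and BAIBA against Sham -0.08 (SE 0.09, adjusted p = 0.886 by edgeR). Over all infarcted rats the log2 fold change was -0.22 (SE 0.09, edgeR adjusted p = 0.759) and the two-sided exact permutation p was 0.0182 before any adjustment for the 63 tests of members.

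Metrnl was low in all HF rats and highest in 1 BAIBA rat. In CPM it was at 4.46, 3.77 and 2.48 in Sham, 1.71, 1.91 and 1.91 in HF, 2.86, 1.87 and 2.90 in HFE, and 6.28, 2.37 and 3.79 in BAIBA. These rest on between 27 and 112 counts per rat. All HF rats lay below all Sham and all BAIBA rats, and HFE overlapped with each other group. HF against Sham gave a log2 fold change of -0.96 (SE 0.29, edgeR adjusted p = 0.805). The HF rats were also the lower in fibroblast markers, at 132, 123 and 161 FPKM against 188, 197 and 171 in Sham. Of the 5 markers, Col1a1 (-0.56, SE 0.11) and Col3a1 (-0.42, SE 0.13) did not overlap, and their part in the Metrnl difference was not tested. BAIBA against HF gave 1.17 (SE 0.38, edgeR adjusted p = 0.851), and 0.75 without BAIBA rat 1. Leaving out HF rat 1 and BAIBA rat 1 together gave 0.70 (edgeR adjusted p = 0.722). The macrophage markers in BAIBA rat 1 were 2.28 times and the fibroblast markers 1.78 times their median over the 12 rats. BAIBA against Sham, at 0.22 (SE 0.38), was within the spread between rats and was -0.21 without BAIBA rat 1.

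Il15 was highest in BAIBA hearts. In CPM it was at 7.98, 7.15 and 7.24 in Sham, 7.94, 9.68 and 7.01 in HF, 9.52, 6.9997 and 6.49 in HFE, and 9.98, 10.9 and 9.62 in BAIBA. In CPM the BAIBA rats lay above all Sham and all HFE rats and overlapped only with HF rat 2. In FPKM the lowest BAIBA rat, at 19.8, lay above HF rat 2 at 19.5. BAIBA against Sham gave a log2 fold change of 0.45 (SE 0.14, edgeR adjusted p = 0.580) and BAIBA against HFE 0.41 (SE 0.19, edgeR adjusted p = 0.542). HF and HFE differed from Sham by 0.13 (SE 0.17) and 0.04 (SE 0.18), both within the spread between rats. The erythroid marker sum was also higher in every BAIBA rat than in every Sham and HFE rat. Of the 4 markers, Alas2 alone did not overlap with either group in CPM. HF rat 3 had the highest erythroid sum in HF, 1772 FPKM, and the lowest Il15 of that group. The part of the erythroid markers in the Il15 difference was not tested.

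**Figure D4:**
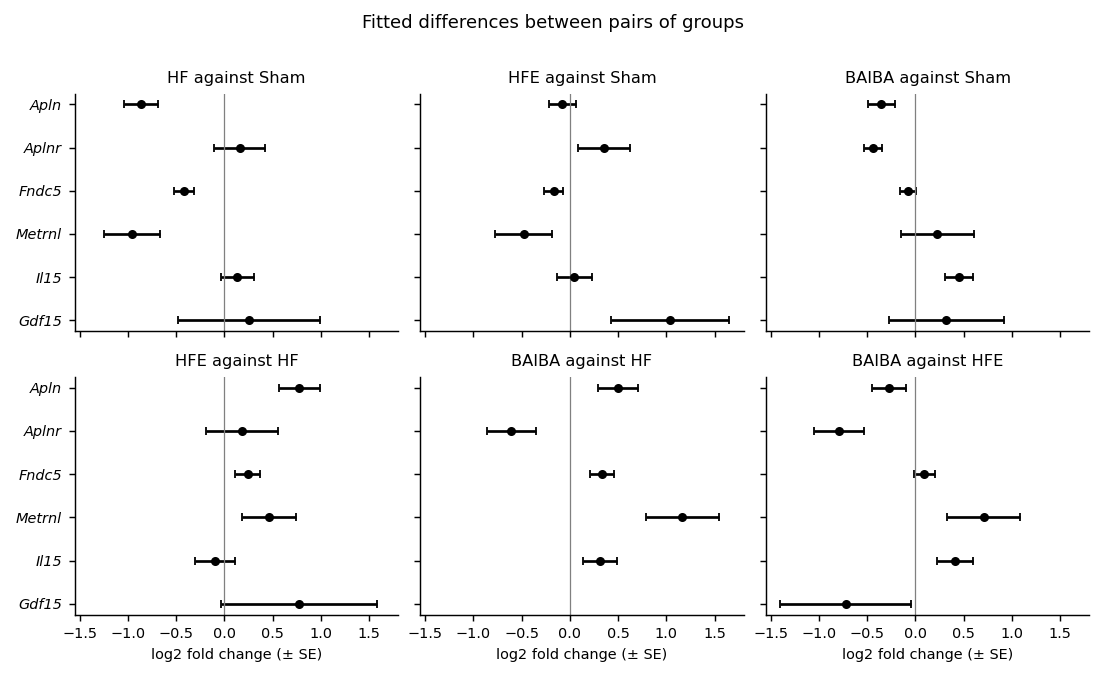
Log2 fold changes from edgeR with their SE for the 6 genes tested in the 6 pairwise comparisons, with 0 as a grey line. Apln, Fndc5 and Metrnl lie left of 0 in HF against Sham and right of 0 in BAIBA against HF, where Gdf15 was not tested.

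The stress hormones and Il6 gave few counts. Gdf15 had 14, 5 and 10 counts in the Sham rats, 5, 5 and 29 in HF, 9, 11 and 37 in HFE, and 24, 8 and 6 in BAIBA. The 3 ligated groups each held 1 rat with at least 24 counts and a pair of rats within the Sham range of counts. In CPM, HF rats 1 and 2, at 0.286 and 0.308, lay below the lowest Sham rat at 0.325. HFE against Sham gave a log2 fold change of 1.04 (SE 0.61, edgeR adjusted p = 0.557), or 0.19 without HFE rat 3, and the other Gdf15 differences were also under 2 SE. Fgf21 had 5, 7 and 9 counts in Sham, 7, 5 and 1 in HF, 8, 2 and 9 in HFE, and 9, 7 and 12 in BAIBA. In CPM the BAIBA rats, from 0.448 to 0.722, lay above the HF rats, from 0.0531 to 0.400, with a two-sided exact permutation p of 0.1. Unscaled, HF rat 1 and BAIBA rat 2 both had 7 counts. Il6 had 0, 2 and 0 counts in Sham, 1, 1 and 2 in HF, 4, 0 and 5 in HFE, and 4, 0 and 2 in BAIBA, and the groups overlapped in every pair. At this depth no difference in Il6 was detectable.

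Ostn was at or below 3 counts in every rat. It had 2 counts in Sham rat 3, 3 in HF rat 1 and 3 in BAIBA rat 1, and 0 in the other 9 rats, so it was not detectable above the limit of 3 counts in any group, and no fold is given.

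The receptors and signalling partners of these proteins were taken from a list of which 24 genes were in the table and 23 were tested. By edgeR 0 of the 23 were called in every comparison. At an unadjusted p under 0.05, 5 passed between HF and Sham (6% of all genes), 6 between HFE and Sham (11.2%), 5 between BAIBA and Sham (7.41%), 3 between HFE and HF (7.62%), 1 between BAIBA and HF (5.55%) and 2 between BAIBA and HFE (9.57%). The median log2 fold change of the 23 was between -0.15 and 0.01 over the 7 comparisons. With DESeq2 Npr3 was the 1 partner called, in HFE against Sham, BAIBA against Sham and infarcted rats against Sham.

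Npr3, the natriuretic peptide clearance receptor that osteocrin binds, was the partner with the lowest p in 6 of the 7 comparisons. In FPKM it was at 6.42, 8.35 and 8.65 in Sham, 4.19, 4.28 and 4.84 in HF, 3.11, 2.17 and 0.979 in HFE, and 2.38, 2.91 and 1.96 in BAIBA. Every ligated rat lay below every Sham rat, and the HFE and BAIBA rats lay below the HF rats. BAIBA against Sham gave a log2 fold change of -1.68 (SE 0.20, edgeR adjusted p = 0.0513) and HFE against Sham -1.86 (SE 0.36, edgeR adjusted p = 0.198). HF against Sham gave -0.79 (SE 0.15, edgeR adjusted p = 0.709), HFE against HF -1.07 (SE 0.37) and BAIBA against HF -0.90 (SE 0.22). Over all infarcted rats it was -1.44 (SE 0.23, edgeR adjusted p = 0.438), with a two-sided exact permutation p of 0.00909, the smallest that 9 rats against 3 can give. Within Sham, HF and HFE the rat with the most Npr3 (Sham 3, HF 3 and HFE 1) was also the one with the highest atrial marker sum, at 64.8, 24.0 and 39.0 FPKM. In BAIBA the rat with the most Npr3, rat 2, had the lowest atrial sum, at 2.66 FPKM. HFE rat 1 also had less Npr3 than HF rats 1 and 2, whose atrial sums were 2.46 and 2.85 FPKM. In BAIBA, where Npr3 was lower than in Sham, the atrial sum was at most 6.33 FPKM and Myl7 was at -5.82 (SE 0.62) against Sham, and the part of atrial tissue was not tested. The signalling receptors of the same family varied less over the 12 rats, with Npr1 between 8.54 and 14.5 FPKM and Npr2 between 9.42 and 12.96. Unlike Npr3, Npr1 was higher in HF and HFE than in Sham. In CPM all HF rats (42.5 to 57.9) and all HFE rats (44.7 to 61.3) lay above all Sham rats (35.1 to 41.2). The BAIBA rats, from 38.8 to 47.03 CPM, overlapped with Sham in Npr1.

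Kit, reported as a receptor of meteorin-like, was at 26.4, 27.0 and 23.5 CPM in Sham, 16.2, 21.9 and 14.6 in HF, 24.2, 27.1 and 22.3 in HFE, and 20.7, 21.6 and 17.6 in BAIBA. As for its ligand, all HF rats lay below all Sham rats, with a log2 fold change of -0.55 (SE 0.16, edgeR adjusted p = 0.805). All BAIBA rats also lay below all Sham rats in Kit, while Metrnl overlapped between BAIBA and Sham. Itgb5, a subunit of an integrin that binds irisin, was at 36.7, 35.6 and 32.2 CPM in Sham and 26.4, 19.96 and 23.7 in BAIBA. BAIBA was below Sham by a log2 fold change of -0.57 (SE 0.13, edgeR adjusted p = 0.350) and below HFE by -0.62 (SE 0.13, edgeR adjusted p = 0.176), with no overlap in either. DESeq2 gave adjusted p of 0.0382 and 0.0141 for these differences. Its partner Itgav was between 4.69 and 10.3 FPKM over the 12 rats. Of the interleukin 15 receptor chains, Il15ra was lower in HF than in Sham (-0.55, SE 0.19, edgeR adjusted p = 0.805) and Il2rg higher (0.45, SE 0.19, edgeR adjusted p = 0.805). HF rat 1, the rat with the T cell markers, had 38.1 CPM of Il2rg, against 23.8 and 24.8 in the other HF rats and between 19.96 and 22.6 in Sham. The remaining chain, Il2rb, was at 13.3, 14.4 and 7.55 CPM in HF and between 11.1 and 13.9 CPM in Sham. Gfral, the receptor of Gdf15, was at 0.130 CPM in Sham rat 2 and 0 in the other 11 rats. The Fgf21 receptor Fgfr1 was present at between 12.5 and 18.5 FPKM, and Il6r and Il6st, which bind interleukin 6, at between 2.44 and 5.98 and between 18.6 and 30.5 FPKM.

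**Figure D5:**
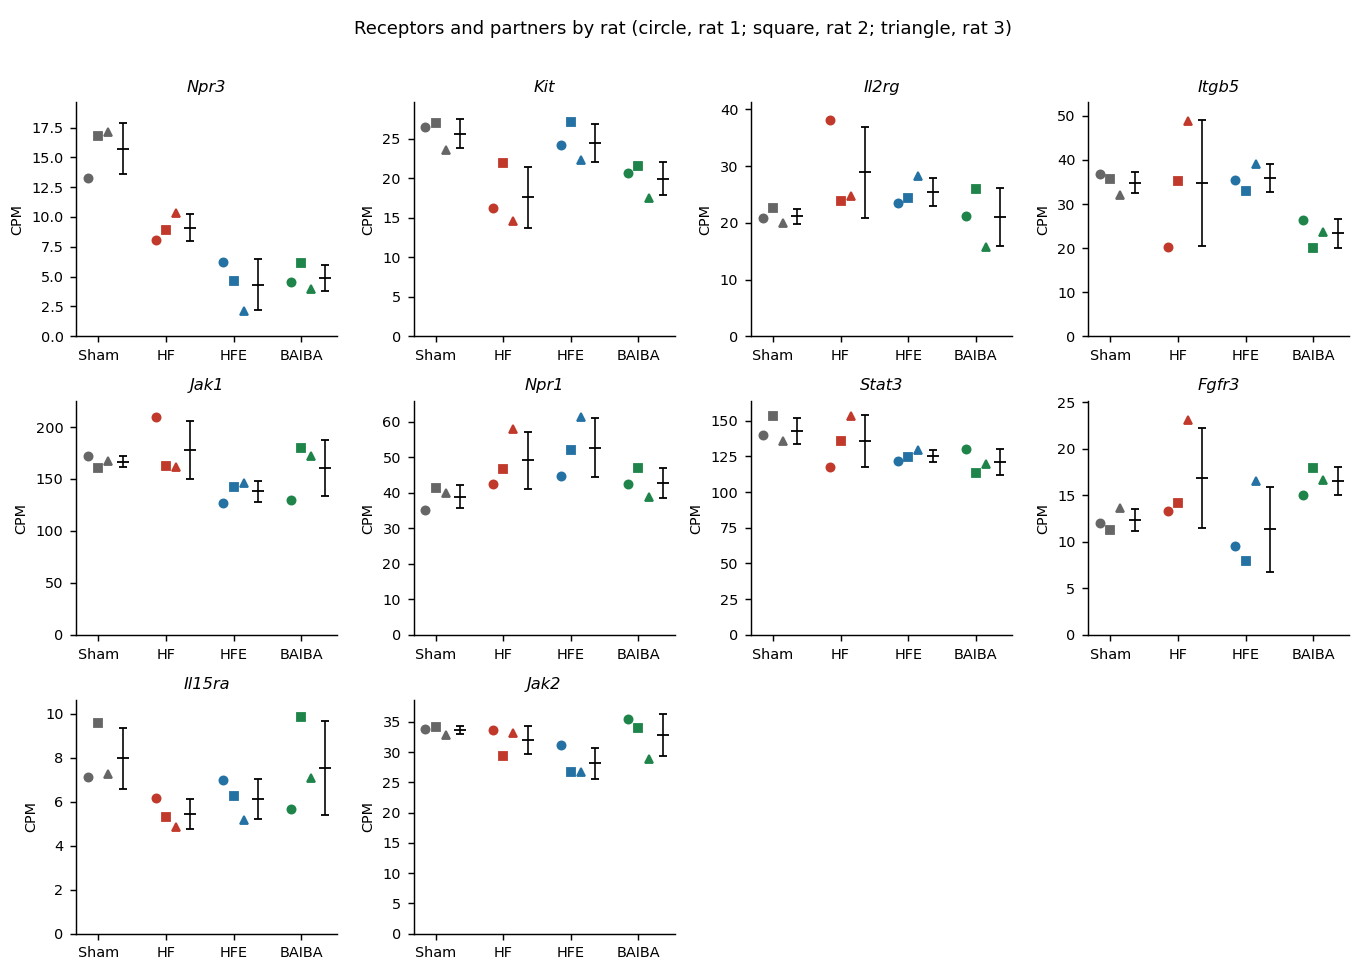
CPM by rat and group, with mean and SD in black, of the 10 receptors and partners with an unadjusted edgeR p under 0.05 in at least 1 pairwise comparison. Npr3 is lower in every ligated rat than in every Sham rat, and Itgb5 lies lower in BAIBA than in Sham and HFE.

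Other secreted factors of heart and muscle were counted from a second list, with 54 genes in the table and between 42 and 44 tested. By edgeR 0 were called in each comparison, and the counts at an unadjusted p under 0.05 were 9 between HF and Sham (6% of all genes), 9 between HFE and Sham (11.2%), 5 between BAIBA and Sham (7.41%), 6 between HFE and HF (7.62%), 6 between BAIBA and HF (5.55%) and 12 between BAIBA and HFE (9.57%). DESeq2 called 1 in HFE against HF (Angptl4), 1 in BAIBA against HF (Nppb) and 4 in BAIBA against HFE (Angptl4, Igf1, Nppb and Spp1). Vegfa, the endothelial growth factor, was at 1088, 1108 and 1186 CPM in HFE and between 716 and 996 CPM in the other 9 rats. HFE was above HF by a log2 fold change of 0.48 (SE 0.08, edgeR adjusted p = 0.584), with an adjusted p of 2.5e-05 by DESeq2. Nampt, an enzyme that is also released, was at 197, 169 and 185 CPM in Sham, and lower without overlap in HF (-0.37, SE 0.09) and in HFE (-0.44, SE 0.08), with edgeR adjusted p of 0.772 and 0.147. Nppb, which encodes the B-type natriuretic peptide, was at 109, 36.02 and 82.9 CPM in BAIBA and at 204, 302 and 189 in HF, a log2 fold change of -1.61 (SE 0.41, edgeR adjusted p = 0.851). Angptl4, an inhibitor of lipoprotein lipase, was at 3.31, 3.52 and 2.47 CPM in BAIBA and 1.13, 0.416 and 0.756 in HFE, a log2 fold change of 2.00 (SE 0.39, edgeR adjusted p = 0.156). Its HF rats, at 1.14, 10.4 and 17.9 CPM, differed from each other more than these groups did. Among the genes with the next lowest p and no overlap, Mstn (myostatin, which restrains muscle growth) was lower in HF than in Sham by a log2 fold change of -1.37, and Inhbb, an activin subunit, was higher in HFE than in Sham by 1.12. Il33 and Bmp4 were higher in BAIBA than in Sham by 0.68 and 0.57. Edn1, the endothelin precursor, was lower in HFE than in HF by -2.15 and higher in BAIBA than in HFE by 2.76, at no more than 2.64 CPM in any rat. Gdf11 was higher in HFE than in HF by 0.52, C1qtnf1 in BAIBA than in HF by 0.41 and Tgfb3 in BAIBA than in HFE by 0.69. None of these passed the edgeR test after adjustment over all genes. The median log2 fold change of the secreted factors tested was between -0.04 and 0.13 over the 7 comparisons, against between -0.01 and 0.01 for all genes tested.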

How the data were processed

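RNA from the heart was measured in 12 rats by paired-end sequencing of poly(A)-selected RNA, 3 rats in each group, with groups and replicate numbers taken from the sample labels. The authors trimmed and filtered the reads before alignment with HISAT2, used StringTie to assemble genes missing from the annotation, and obtained gene counts from featureCounts. The deposited counts are raw, and the deposited FPKM values were made by the authors from these counts and the gene lengths. The submitters' processing notes name the mouse build mm9, although the gene identifiers are those of rat. Tool versions, the rat build and the use of strand in counting are not given in the sources used here, so reads of overlapping or antisense genes may be mixed. A further pair of deposited tables repeated the counts and FPKM with 0 differing values.

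Differences were fitted to the counts by edgeR 4.0.16 under R 4.3.3 (TMM, filterByExpr, robust quasi-likelihood fits) on the 2 groups compared, with no covariate, and on all 12 rats for the infarcted groups against Sham. Adjusted p-values are Benjamini-Hochberg values over all genes tested and come from edgeR unless DESeq2 is named. CPM values used TMM factors over the 12 rats, and FPKM served for comparing levels between genes. For single genes the values log2(CPM + 0.1) were permuted exactly (two-sided), with a smallest p of 0.1 for 3 rats against 3 and 0.00909 for 9 against 3. The procedure was tested on simulated data. Alternatives were DESeq2 1.42.0 using its size factors, scaling by RLE or by library size alone, genes kept from 1 count, the 12 rats fitted together, a replicate block, and each rat left out in turn. Leaving out HF rat 1 and BAIBA rat 1 together was added after seeing the data.

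The genes and lists were chosen with earlier results of these data known. All 9 genes were named whatever their values, list genes where they were called or were direct receptors, and of other secreted factors up to 3 per comparison with the lowest unadjusted p under 0.05 and no overlap. Ccn1 and Ccn2 were matched through older symbols, and Apela, Klb and Serpina3n were not matched. Same-numbered rats are different animals. Their deviations from the group means correlated with r between 0.138 and 0.261 in BAIBA against HFE, and between -0.0835 and 0.150 in the other pairs of groups. Rats with different numbers were not compared in this way, so these values do not show pairing. The replicate block is given as an alternative only. Replicates were distinct, with a chi-square per degree of freedom between 12.6 and 36.4. Nothing says how the rats were distributed over batches.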

Additional observations from a re-analysis of the deposited data

How the results depend on the processing

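Under DESeq2, RLE scaling, library sizes only, no filter and the replicate block, 0 members were called in every comparison. The fit of all 12 rats also gave 0 for each pair of groups. HF rat 1 and BAIBA rat 1 were removed together only in BAIBA against HF and in the infarcted groups against Sham, again with 0 members called. Leaving out 1 rat gave between 0 and 1 called members in BAIBA against HFE, with Aplnr called without HFE rat 3, and 0 elsewhere. Of the 533 values recomputed for 41 results on single members, 22 changed sign in 13 results, 18 of them when 1 rat was left out. Otherwise Gdf15 in HF against Sham was -0.00066 with the replicate block, Il15 in HFE against Sham was -0.0060 with library sizes only, and Aplnr in the infarcted groups against Sham was -0.0043 with library sizes only and -0.0029 with the block.

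Over the samplings that left out 1 rat each, the log2 fold changes that crossed 0 ranged as follows. In HF against Sham, Gdf15 ranged from -0.9997 to 0.63, Aplnr from -0.20 to 0.37 and Il15 from -0.0049 to 0.24. In HFE against Sham, Apln ranged from -0.24 to 0.020 and Il15 from -0.14 to 0.16. In BAIBA against Sham, Metrnl ranged from -0.21 to 0.49 and Gdf15 from -0.45 to 0.63. In HFE against HF, Aplnr ranged from -0.023 to 0.54, Gdf15 from -0.074 to 2.03 and Il15 from -0.28 to 0.038. In BAIBA against HFE, Fndc5 ranged from -0.0085 to 0.16 and Gdf15 from -1.49 to 0.13, and Aplnr in the infarcted groups against Sham from -0.10 to 0.11. The cause was not tested.

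The replicate block gave no member call, and the all-gene count in BAIBA against HFE went from 12 to 32 with it, from 6 to 9 in BAIBA against Sham and from 0 to 1 in HFE against Sham. No sample pairing was shown in any comparison. Over all genes DESeq2 called more than edgeR, with 23 in HF against Sham, 66 in HFE against Sham, 69 in BAIBA against Sham, 18 in HFE against HF, 27 in BAIBA against HF, 154 in BAIBA against HFE and 10 in the infarcted groups against Sham. Fgf21, Il6 and Ostn are limited by depth, and a p that missed the threshold with 3 rats a group does not show that groups were alike.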

Other observations

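The genes whose log2 CPM followed each member most closely over the 12 rats were taken from 12665 genes, as a description without a test, since the rats share group, depth and cell make-up. For Fndc5 they were Prss36 (Pearson r = 0.956), Tmem11 (r = 0.896) and Tent4b (r = 0.879). For Apln they were Socs5 (r = 0.923), Tmem38a (r = 0.907) and Epdr1 (r = 0.875), and for Aplnr they were Clock (r = 0.917), Calhm5 (r = 0.917) and Gimap4 (r = 0.877). Metrnl was followed by Cyth4 (r = 0.904), Adamts2 (r = 0.884) and Pld4 (r = 0.857), Gdf15 by Tp53inp2 (r = 0.898), Comtd1 (r = 0.887) and Zyx (r = 0.841), and Il15 by Upf3b (r = 0.869), Ptp4a3 (r = 0.854) and Eif2b1 (r = 0.843). Prss36 had between 24 and 43 counts per rat, so its likeness to Fndc5 rests on few reads.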
